A study of Caenorhabditis elegans with 16 samples.

Results

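The small RNAs that came down with the alg-1 transcript were compared with those recovered from a no-target control in Caenorhabditis elegans. All libraries with the title N2_alg-1_elution (n = 2) were set against all with the title N2_gfp_elution (n = 3), which makes 5 of the 16 libraries of the series. In both groups the worms were wild-type strain N2 at the young adult stage, and whole worms were lysed after crosslinking of RNA to bound protein in the living animal. The alg-1 group was retrieved with 10 biotinylated DNA probes tiling the alg-1 transcript, whereas the control group received probes against the gfp coding sequence, which N2 does not carry. The groups therefore differ in their probes as well as in the retrieved transcript, and recovery with the transcript cannot be told apart from recovery through the probes. Reads were counted per mature microRNA (miRNA). Of 434 mature miRNAs listed, 201 had a read in these 5 libraries, and the 112 that reached 10 reads in 2 or more libraries of the series were tested.

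alg-1 encodes an Argonaute, the protein that holds a miRNA and guides it to partly complementary sites in messenger RNAs. A miRNA is cut from a hairpin whose arms are named 5p and 3p. One arm is usually loaded as the guide, and the other is usually degraded. ALG-1 carries out miRNA function in the worm, and its own transcript is a known miRNA target. Whether the miRNAs found with this transcript act on it was not tested. In the WBcel235 assembly with Ensembl annotation, alg-1 lies on the plus strand of chromosome X from 13949110 to 13956261, and its longest 3′ UTR runs from 13954708 to 13956261. Hairpin positions below are from the same annotation, since the deposited counts carry none.

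The alg-1 libraries held 160645 and 126242 miRNA reads, and the controls 73899, 42622 and 12474, so low values rest on few reads in the controls. With 3 reads as the limit, the smallest detectable share was 0.00187% and 0.00238% in the alg-1 libraries and 0.00406% to 0.0241% in the controls. Intervals and limits cover counting error only. The alg-1 libraries differed from each other by more than sampling noise (chi-square per degree of freedom 53.5, against 49.0 to 239 between controls) and were counted as separate replicates. The labels do not say whether replicates came from separate cultures, so p-values measure the spread between libraries, which may be technical. In whole worms, a change in how many cells hold a miRNA and a change per cell cannot be told apart. Library names carry a prefix: alg-1 replicate 1 shares PD2 with control replicate 2, alg-1 replicate 2 shares PD1 with control replicate 3, and control replicate 1 has the prefix E.

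Compared with the control, 18 of the 112 miRNAs were higher in alg-1 pulldowns (16.1% of those tested) and 6 were lower (5.36%) at an edgeR adjusted p-value under 0.05. In normalised CPM (reads scaled by library size and by the TMM factor that edgeR derives from the bulk of miRNAs), both alg-1 libraries lay above all 3 controls for 26 miRNAs (23.2%) and below all of them for 17 (15.2%). All 24 called miRNAs were among these. The 18 higher miRNAs took 78.3% and 89.2% of the reads in the alg-1 libraries, against 13.7%, 11.3% and 21.6% in the controls. Without miR-71-5p and let-7-5p they took 13.3% and 14.6%, against 6.83%, 4.53% and 10.7%. The 6 lower ones took 0.567% and 0.524%, against 41.8%, 18.4% and 34.97%. Both sets were picked for their difference in these libraries, so their shares describe it and are no support for it. TMM factors were large, 1.72 and 1.29 in the alg-1 libraries and 4.35 to 5.32 in the controls. With library totals as the only scaling, the median log2 fold change of all tested miRNAs moved from 0.07 to -1.51 and the split became 7 higher and 30 lower. Under that scaling 11 of the 18 higher miRNAs lost the call. Among them were miR-84-5p (log2 fold change 1.22, adjusted p-value 0.152), miR-253-3p (1.78, 0.0626), miR-77-5p (1.20, 0.156), miR-40-3p (0.86, 0.366) and miR-241-5p (0.38, 0.681). miR-71-5p, let-7-5p, miR-51-3p, miR-1829c-5p, miR-50-5p, miR-786-3p and miR-795-5p stayed higher. Over the 18 alternative settings described below, their lowest log2 fold changes were 3.98, 2.01, 4.76, 4.83, 2.54, 2.745 and 2.47, in that order. Without alg-1 replicate 2 the number higher fell to 10, and without control replicate 2 the number lower rose to 12.

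**Figure D1:**
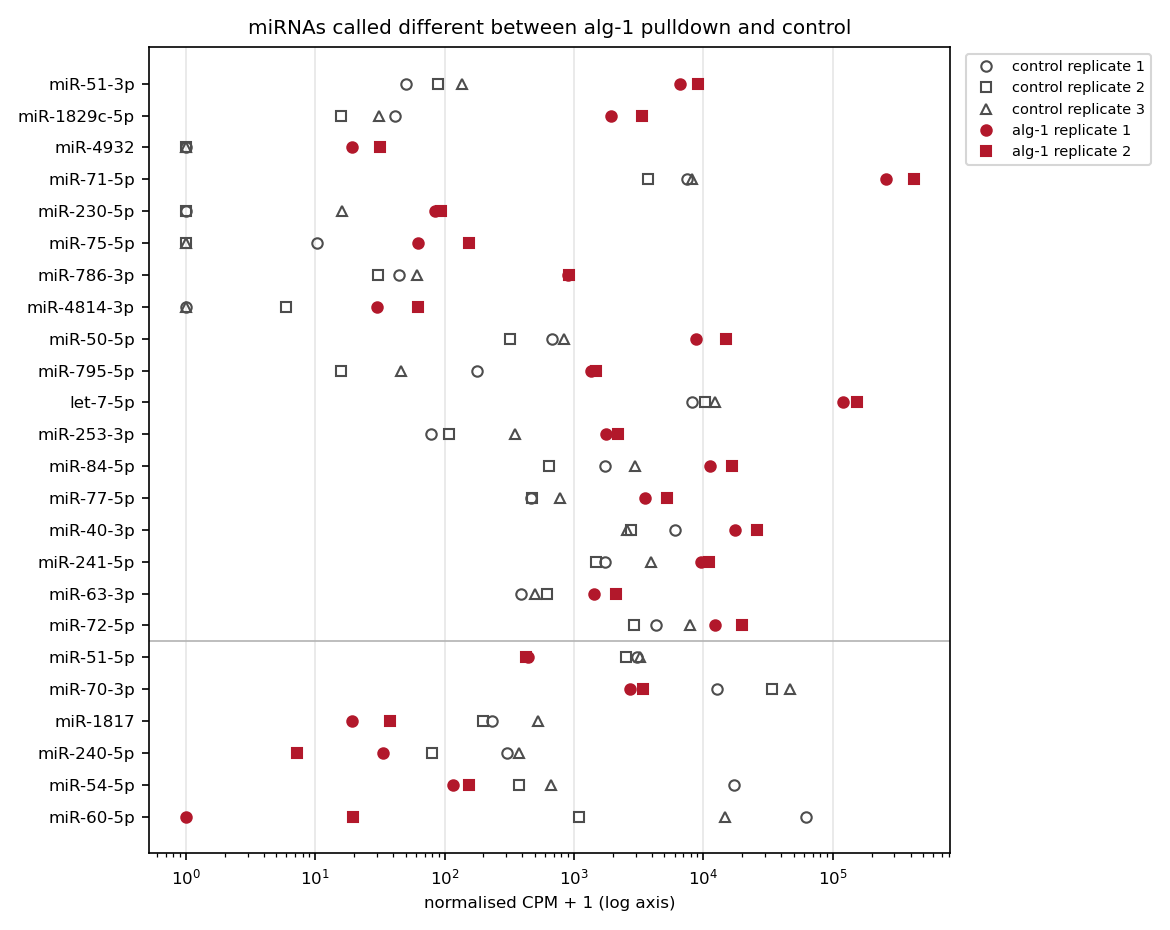
Level of the 24 called miRNAs in each library, as normalised CPM plus 1 on a log axis. Filled red symbols are the 2 alg-1 libraries and open grey symbols the 3 controls. Above the grey line stand the 18 higher miRNAs and below it the 6 lower ones, and in no row do the groups overlap.

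miR-71-5p, known for a role in worm lifespan and stress resistance, was the most abundant miRNA in both alg-1 libraries. It gave 71322 and 69089 reads with alg-1, and 2422, 764 and 540 reads in controls 1, 2 and 3. Among miRNAs of the same library it ranked 1 in both alg-1 libraries but 9, 11 and 6 in the controls. Its normalised level was 258700 and 425300 CPM with alg-1, against 3742 to 8152 CPM in the controls, a 52.8-fold difference (log2 fold change 5.72, SE 0.60, edgeR adjusted p-value 3.52e-08). With each library left out in turn, the log2 value lay between 5.01 and 6.04, but its lowest over all alternative settings was 3.98. miR-71-5p was also above the same controls with lin-41 (log2 fold change 1.72, edgeR adjusted p-value 0.0208) and with gld-1 (2.79, adjusted p-value 3.15e-04). The other arm did not follow: miR-71-3p had 13 and 7 reads with alg-1 and 46, 14 and 1 in the controls (log2 fold change -0.85, adjusted p-value 0.565). The hairpin sits in an intron of ppfr-1 (chromosome I, minus strand, 9379927 to 9380020).

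The let-7 family, whose members time larval development and share a seed, had the most calls among the families listed. The list was chosen with earlier results of these data known, so this rank is a description only. Of 8 tested mature miRNAs, 4 were higher and 0 lower, where 16.1% and 5.36% of all tested miRNAs were, and the 4 usual guide arms had a median log2 fold change of 2.55. The family took 25.3% ± 0.580 of the reads with alg-1 (SD, n = 2) and 9.45% ± 3.02 in the control (SD, n = 3). With alg-1 this share was mostly let-7-5p, which alone took 20.6% and 19.9%, against 3.54%, 4.965% and 6.56% in the controls. let-7-5p, the founding member and a repressor of lin-41, ranked next to miR-71-5p with 33036 and 25171 reads, against 2619, 2116 and 818 in the controls. That is a 13.4-fold difference in normalised level (log2 fold change 3.74, SE 0.60, adjusted p-value 2.80e-05).

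miR-84-5p gave 3108 and 2717 reads with alg-1 and 555, 130 and 198 in the controls, and was 7.89-fold higher (log2 fold change 2.98, SE 0.59, adjusted p-value 4.06e-04). miR-241-5p gave 2665 and 1784 reads, against 558, 302 and 261, and was 4.34-fold higher (log2 fold change 2.12, SE 0.55, adjusted p-value 0.00414). This last call was lost without alg-1 replicate 2 (log2 fold change 1.71, adjusted p-value 0.182) as well as under library totals. miR-48-5p, whose hairpin neighbours that of miR-241 on chromosome V, had 2128 and 1536 reads against 1697, 806 and 316. Its normalised levels did not overlap between the groups, but the test did not pass, with a log2 fold change of 0.88 and an adjusted p-value of 0.288.

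miR-795-5p is a rarer relative of let-7. It had 372 and 239 reads with alg-1 and 57, 3 and 3 in the controls, and was 16.6-fold higher (log2 fold change 4.06, SE 0.81, adjusted p-value 4.24e-04). Control replicate 1 was the highest of the controls, and without it the log2 value was 5.80. The 3 remaining tested members, miR-48-3p, miR-241-3p and miR-793, had overlapping levels and log2 fold changes of -1.28, 0.76 and -0.53.

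**Figure D2:**
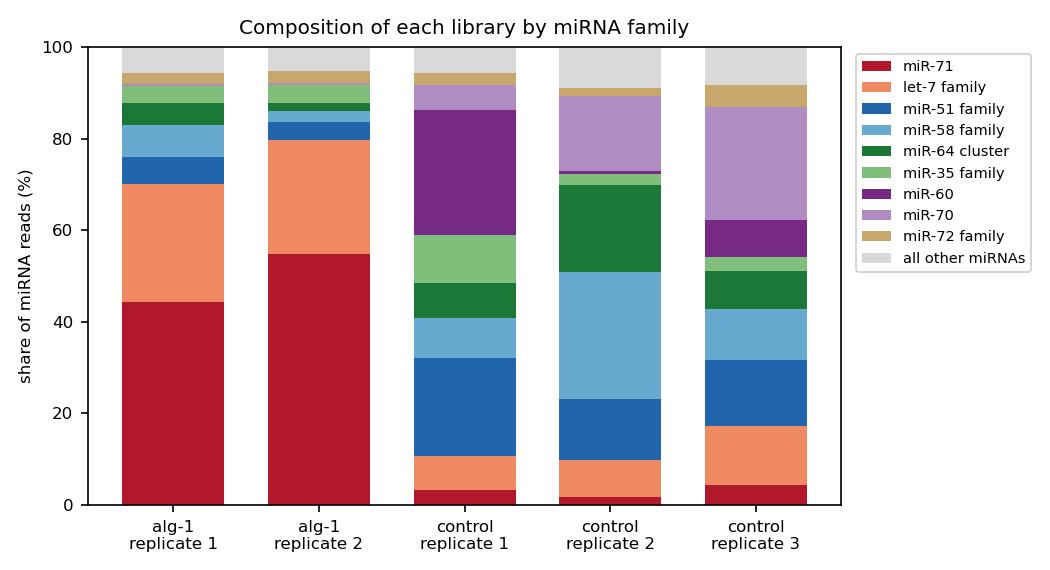
Share of miRNA reads, in percent, taken by each family in the 2 alg-1 and 3 control libraries (stacked bars, 100% per library). miR-71 and the let-7 family fill most of both alg-1 bars, while the controls differ among themselves, miR-60 being large in replicate 1 and miR-70 in replicate 3.

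The hairpin mir-51 showed opposite changes of its arms. miR-51-3p, the arm usually discarded, gave 1832 and 1468 reads with alg-1 and 16, 18 and 9 in the controls. It was 90.9-fold higher in normalised level (log2 fold change 6.51, SE 0.67, adjusted p-value 3.52e-08). miR-51-5p, the usual guide and a relative of the vertebrate miR-99 and miR-100, gave 121 and 69 reads with alg-1 and 986, 516 and 214 in the controls, 6.81-fold lower (log2 fold change -2.77, SE 0.66, adjusted p-value 0.00220). Both calls held when any single library was left out, with log2 values of 5.94 to 6.84 for the 3p arm and -3.06 to -2.70 for the 5p arm.

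Within a library, the log2 ratio of 5p to 3p reads of mir-51 (pseudocount 1) was -3.91 and -4.39 with alg-1 and 5.86, 4.77 and 4.43 in the control. This ratio does not depend on scaling between libraries. The same ratio was -2.90 and -4.57 in the lin-41 pulldowns and -0.13 and 1.26 in the gld-1 pulldowns, so an excess of the 3p arm was also present with lin-41. The hairpin lies on chromosome IV from 11026013 to 11026112 on the minus strand.

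Among the rest of the miR-51 family, which is needed in the embryo, calls were few. Of its 9 tested mature miRNAs, miR-51-3p was higher, miR-51-5p and miR-54-5p were lower, and 6 did not pass the test, against 16.1% higher and 5.36% lower over all tested. miR-54-3p, the usual guide of mir-54, had 1144 and 380 reads with alg-1 against 1462, 1281 and 263 (log2 fold change -0.60, adjusted p-value 0.488). miR-56-3p had 2742 and 1969 reads with alg-1 against 959, 1574 and 348 (log2 fold change 1.05, adjusted p-value 0.180). The abundant miR-52-5p had 2906 and 717 reads against 5825, 1615 and 757 (log2 fold change -0.74, adjusted p-value 0.474).

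miR-1829c-5p had the log2 fold change closest to that of miR-51-3p. It gave 530 and 548 reads with alg-1 but 13, 3 and 2 in the controls, a 90.4-fold difference in normalised level (log2 fold change 6.50, SE 0.85, adjusted p-value 1.25e-06). The other arm, miR-1829c-3p, had 2 and 0 reads with alg-1 and 16, 3 and 0 in the controls. Its relative miR-1829a-5p had 4 and 0 reads against 2, 2 and 1 (log2 fold change -0.10, adjusted p-value 0.993). The hairpin lies in an intron of piki-1 on chromosome X, from 15236362 to 15236423 on the minus strand.

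miR-50-5p, from an intron of tln-1 (chromosome I, 1738635 to 1738733, plus strand), gave 2408 and 2424 reads with alg-1 and 217, 65 and 55 in the controls. Its normalised level was 19.6-fold higher (log2 fold change 4.29, SE 0.56, adjusted p-value 1.25e-06), and it ranked 12 and 6 in the alg-1 libraries against 32, 43 and 30 in the controls. miR-253-3p, from an intron of F44E7.5, gave 484 and 356 reads against 25, 22 and 23, 11.9-fold higher (log2 fold change 3.57, SE 0.68, adjusted p-value 2.60e-04). In normalised level both miRNAs lay above every control. As a share of reads, miR-253-3p was closer, at 0.301% and 0.282% with alg-1 against 0.184% in control replicate 3. miR-253-5p had 5 and 5 reads with alg-1 and 0, 6 and 0 in the controls, too few to be tested.

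A pair of hairpins on chromosome X, mir-240 (7882622 to 7882718) and mir-786 (7882751 to 7882840), lie side by side on the plus strand, and their products differed in direction. miR-786-3p had 248 and 150 reads with alg-1 and 14, 6 and 4 in the controls, 21.3-fold higher (log2 fold change 4.41, SE 0.83, adjusted p-value 2.60e-04). miR-240-5p had 9 and 1 reads with alg-1 and 98, 16 and 25 in the controls, 11.8-fold lower (log2 fold change -3.56, SE 1.00, adjusted p-value 0.00878). The call for miR-240-5p was lost without alg-1 replicate 2 (log2 fold change -3.23, adjusted p-value 0.115). miR-240-3p, the usual guide, had 41 and 12 reads against 40, 22 and 6 (log2 fold change 0.04, adjusted p-value 0.993).

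Of the miR-35 family, which acts in the embryo and germline, miR-40-3p alone was called, 1 of 11 tested members against 16.1% of all tested miRNAs. It gave 4884 and 4244 reads with alg-1 and 1924, 563 and 171 in the controls, 5.79-fold higher (log2 fold change 2.53, SE 0.54, adjusted p-value 7.61e-04). Without alg-1 replicate 2 the value was 1.91 and the adjusted p-value 0.0972, and library totals also ended the call. The other 10 tested members had log2 fold changes from -3.39 to 1.80 and did not pass the test. The mir-40 hairpin lies on chromosome II from 11538184 to 11538275 on the plus strand, within 5000 bases of mir-35, mir-36, mir-37, mir-38, mir-39 and mir-41. From that cluster, miR-35-3p had 293 and 155 reads with alg-1 and 3376, 197 and 55 in the controls (log2 fold change -2.03, adjusted p-value 0.136). That value turns on control replicate 1, without which it was 0.18. miR-37-3p had 314 and 191 against 727, 108 and 64 (log2 fold change -0.12, adjusted p-value 0.917).

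miR-77-5p, miR-63-3p and miR-72-5p were higher by smaller amounts. Against the same controls, their log2 fold changes in the gld-1 pulldowns were 3.29, 2.25 and 2.84, above those with alg-1. In the lin-41 pulldowns they were 1.40, 1.11 and 6.33. miR-77-5p had 983 and 850 reads with alg-1 against 148, 97 and 52 (log2 fold change 2.95, SE 0.63, adjusted p-value 7.60e-04), miR-63-3p had 397 and 346 against 124, 126 and 33 (1.83, SE 0.52, adjusted p-value 0.00923), and miR-72-5p had 3419 and 3218 against 1393, 594 and 523 (1.68, SE 0.52, adjusted p-value 0.0165). Without alg-1 replicate 2 their log2 values were 2.33, 1.20 and 0.99, with adjusted p-values of 0.0581, 0.395 and 0.539, and without control replicate 1 miR-72-5p had an adjusted p-value of 0.0689. With library totals as the only scaling all these calls were lost, and miR-72-5p changed sign (-0.09). As a share of reads miR-63-3p overlapped between the groups, at 0.247% and 0.274% with alg-1 against 0.168%, 0.296% and 0.265%. Summed precursors, or only PD1 and PD2 libraries with prefix as a factor, also ended the calls for miR-63-3p and miR-72-5p. Of their partner arms, miR-72-3p had 14 and 5 reads against 0, 6 and 1 (log2 fold change 1.58, adjusted p-value 0.426), and miR-63-5p had 1 and 0 against 11, 3 and 1.

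The remaining 4 higher miRNAs rest on few reads. miR-75-5p had 17 and 25 reads with alg-1 and 3, 0 and 0 in the controls, a ratio of 18.9. The 95% counting interval was 6.04 to 95.3. With at most 9 reads in any other library, miR-75-5p reached the filter of 10 reads only through the alg-1 libraries. Its test is thus no support for the difference, and without either alg-1 library it was not tested. miR-230-5p had 23 and 15 reads against 0, 0 and 1 (ratio 51.3, interval 8.67 to 2079) while its partner miR-230-3p had 28 and 15 against 22, 24 and 1 (log2 fold change 0.43, adjusted p-value 0.780), and miR-4814-3p had 8 and 10 against 0, 1 and 0 (ratio 24.3, interval 3.84 to 1012). miR-4932 had 5 and 5 reads with alg-1 against 0, 0 and 0, and was at least 4.5-fold higher with 3 reads over the control group as the limit. Their adjusted p-values were 0.00719, 0.00362, 0.0209 and 0.00923. Without alg-1 replicate 2 those of miR-4814-3p and miR-4932 rose to 0.229 and 0.0765, and without control replicate 1 that of miR-4814-3p was 0.0786.

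Of the 6 miRNAs lower with alg-1, 4 are arms usually discarded or of no assigned arm, and miR-60-5p differed most. It gave 0 and 3 reads with alg-1 and 20097, 224 and 969 in the controls, a ratio of summed reads 5257-fold lower with a counting interval of 1799 to 25490. Control replicate 1 supplied most of these reads, and without it the ratio was 644-fold. The edgeR adjusted p-value was 0.00199. miR-60-3p, the guide arm known from the intestine, had 101 and 22 reads with alg-1 and 106, 55 and 21 in the controls (log2 fold change -0.27, adjusted p-value 0.894). Where gfp probes were used on gfp-carrying strains, miR-60-5p was also abundant, with 3709 and 392 reads in the gld-1::gfp libraries and 5005 in the gfp::lin-41 library. In the lin-41 and gld-1 pulldowns, made with gene probes, it had 0 to 5 reads. The part of the probes in this difference was not tested.

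miR-70-3p had 743 and 558 reads with alg-1 and 4073, 6957 and 3075 in the controls, 10.1-fold lower in normalised level (log2 fold change -3.34, SE 0.70, adjusted p-value 7.35e-04). miR-1817, listed without an arm, had 5 and 6 reads against 74, 40 and 35, 11.5-fold lower (log2 fold change -3.53, SE 0.84, adjusted p-value 0.00220). For both, every alg-1 library stood below every control. miR-54-5p had 32 and 25 reads with alg-1 and 5590, 77 and 44 in the controls (log2 fold change -5.52, SE 1.62, adjusted p-value 0.0276). That value turns on control replicate 1, without which it was -1.92 (adjusted p-value 0.0501), and the call was also lost without either alg-1 library (adjusted p-values 0.130 and 0.1002). miR-54-5p was high in the other libraries with prefix E too, at 854 reads in gld-1::gfp replicate 1 and 1202 reads in gfp::lin-41. In normalised CPM it was 863, 1724 and 17412.8 in the libraries of prefix E, all made with gfp probes, 218 to 664 in the 3 gfp-probe libraries of other prefixes, and 58.5 to 154 in the alg-1, lin-41 and gld-1 libraries.

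The same miRNAs can be read in the other pulldowns made with gene probes, set against the same controls and therefore not independent of the values above. Relative to the control, miR-60-5p differed by -12.22 on the log2 scale with lin-41 and -11.06 with gld-1, miR-54-5p by -6.56 and -6.26, and miR-240-5p by -5.53 and -5.27. miR-51-5p differed by -3.50 and -3.39, and miR-70-3p by -1.28 and -2.72. miR-1817 differed by 0.93 and -2.21, which sets its lin-41 value apart from those of the other lower miRNAs. Of the higher miRNAs, let-7-5p differed by 7.72 with lin-41 and 1.55 with gld-1, miR-51-3p by 5.22 and 1.03, and miR-84-5p by 0.95 and 8.07. The values of miR-1829c-5p were -1.90 and 0.21, and of miR-50-5p -0.66 and 0.37. Those of miR-786-3p were -0.75 and -0.46, of miR-795-5p -0.80 and 0.55, and of miR-40-3p -0.63 and -0.68.

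By arm, 11 of 51 tested 5p miRNAs were higher and 4 lower, with a median log2 fold change of 0.23. Of 57 tested 3p miRNAs, 6 were higher and 1 lower, with a median of 0.03, against 0.07 over all 112. The 4 miRNAs without an arm name gave 1 higher and 1 lower. 5p arms took 82.1% and 88.1% of the reads with alg-1 and 66.5%, 38.5% and 49.2% in the controls. miR-71-5p and let-7-5p, both 5p, made up 65.0% and 74.7% of the alg-1 reads. Where the family list assigned a usual guide arm, 6 of 43 tested guides were higher and 2 lower. Among 22 partner arms 1 was higher and 3 were lower. Most of the higher miRNAs, among them miR-50-5p, miR-786-3p, miR-253-3p and miR-77-5p, had no guide assigned there and are left out. These counts of guides are close to the 16.1% and 5.36% of all tested miRNAs, and no test between guides and partner arms was made. Partner arms took 1.36% and 1.32% of the alg-1 reads and 35.7%, 1.24% and 8.97% of the control reads, the first of these being mostly miR-60-5p and miR-54-5p.

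The ratio of arms could be read in 50 hairpins with at least 20 reads in each alg-1 library. The log2 ratio of 5p to 3p lay above all controls for 12 hairpins, below all controls for 10, and overlapped for 28. Where 1 arm has almost no reads the ratio follows depth and the level of the other arm. Such hairpins include let-7, mir-50, mir-84, mir-86 and mir-795 above the controls, and mir-40, mir-56, mir-786 and mir-90 below. Their values are not compared in size, and the counts above and below are no measure of shifts between arms. For mir-71 the ratio was 12.3 and 13.1 with alg-1 and 5.69, 5.67 and 8.08 in the control. Its 3p arm had only 13 and 7 reads against 46, 14 and 1. The ratio of mir-71 thus also follows the level of miR-71-5p, and its size is no measure of a shift between arms. For mir-77 it was 2.14 and 2.90, against 2.01, -0.99 and 1.92, and miR-77-3p had 222 and 113 reads with alg-1 against 36, 193 and 13. The arms of mir-230 were about even with alg-1 (-0.27 and 0.00), while in controls 1 and 2 the 3p arm stood alone (-4.52 and -4.64), and control 3 held 1 read of each arm. mir-60, with 0 and 3 reads of its 5p arm and 101 and 22 of its 3p arm, gave -6.67 and -2.52 with alg-1, the first of these set by the pseudocount, and 7.55, 2.01 and 5.46 in the control. In mir-58a, from a family with no call, the ratio was -4.25 and -4.55, against -4.74, -4.97 and -5.87, a small difference without overlap.

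**Figure D3:**
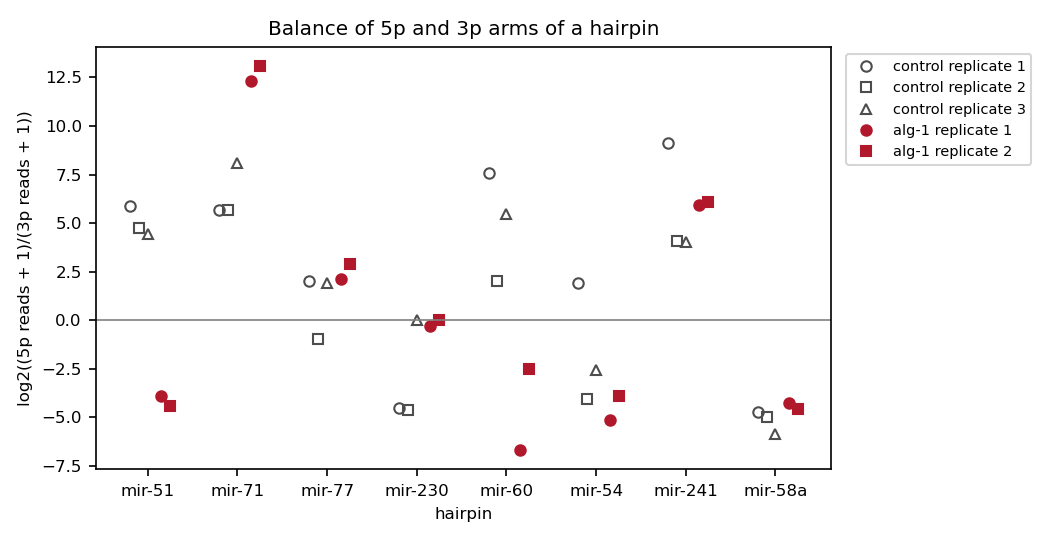
Balance of the arms in 8 hairpins, as log2 of (5p reads + 1) over (3p reads + 1), by library. Filled red symbols are alg-1 and open grey symbols the control; mir-51 lies below 0 with alg-1 and above 0 in every control, mir-71 lies above the controls on few 3p reads, and mir-58a lies slightly above the controls.

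Other abundant families had no called member, and their shares of reads were lower with alg-1. All 5 tested miRNAs of the miR-58 family, somatic relatives of fly bantam, had log2 fold changes between -0.80 and 0.81, and the family took 6.98% and 2.46% of alg-1 reads against 8.65%, 27.7% and 11.2%. The 5 tested products of the miR-64 cluster lay between -1.53 and 0.23, with a share of 4.80% and 1.82% against 7.77%, 19.2% and 8.37%. lin-4-5p, the first miRNA described and a regulator of lin-14, was at -1.58 (adjusted p-value 0.119), and its relative miR-237-5p at 0.20. lin-4-5p passed the test as lower without control replicate 1 (-1.97, adjusted p-value 0.0289) and with the name prefix as a factor (-1.94, adjusted p-value 0.00163), and likewise with only PD1 and PD2 libraries, DESeq2 or library totals. In the miR-2, miR-44 and miR-46 families none of the 11 tested miRNAs was called, with values from -3.68 to 2.55.

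Among miRNAs that mark tissues of the whole worm, those of muscle and neurons had few reads, while those of the intestine (miR-60-3p) and of the embryo and germline (the miR-35 family) are given above. lsy-6-3p, from a taste neuron, had 0 reads in all 5 libraries. miR-1-3p, from muscle, had 5 and 3 reads with alg-1 and 1, 1 and 0 in the controls. miR-124-3p, from sensory neurons, had 145 reads in alg-1 replicate 1 but 6 in replicate 2, and 0, 24 and 1 in the controls (log2 fold change 2.61, adjusted p-value 0.341). Within these 5 libraries its higher values were in those with prefix PD2. Whether tissue composition has a part in the other differences was not tested.

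To see which miRNAs were higher with alg-1 than with other endogenous transcripts, the alg-1 libraries were compared with the mean of the lin-41 (n = 2) and gld-1 (n = 2) pulldowns from N2, each made with 10 probes of its own. This comparison uses the same alg-1 libraries as the one above. It gave 10 miRNAs higher with alg-1 (8.93% of 112) and 9 lower (8.04%). Of the 18 that were higher than the control, 9 were also higher here, 2 were lower and 7 were not called. Of the 6 below the control, 1 was lower here (miR-1817, log2 fold change -2.89, adjusted p-value 0.00994), 0 were higher and 5 were not called. With library totals only, the split was 32 higher and 3 lower, the median of all miRNAs moving from 0.02 to 1.31. Without either alg-1 library, the number lower fell to 4. The call for miR-1817 was lost without alg-1 replicate 1 (-2.40, adjusted p-value 0.194) and with library totals (-1.80, adjusted p-value 0.151), and it was past the threshold against lin-41 (-4.46, adjusted p-value 5.05e-04) but not against gld-1 (-1.31, adjusted p-value 0.413).

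miR-1829c-5p had 3 and 0 reads with lin-41 and 14 and 2 with gld-1, and was higher with alg-1 by 7.34 on the log2 scale (SE 0.79, adjusted p-value 1.11e-07). miR-786-3p, with 6 and 3 reads for lin-41 and 9 and 6 for gld-1, was higher by 5.02 (SE 0.76, adjusted p-value 1.38e-05). miR-50-5p had 107, 38, 200 and 185 reads in these libraries and was higher by 4.43 (SE 0.50, adjusted p-value 1.60e-07). These 3 miRNAs were thus high in the alg-1 libraries against both references. miR-795-5p was higher by 4.18 and miR-75-5p by 3.75, the latter not past the threshold without lin-41 replicate 1 (3.39, adjusted p-value 0.0672) and below the filter on reads without either alg-1 library. miR-71-5p had 4598 and 2645 reads with lin-41 and 8034 and 14518 with gld-1, and was higher with alg-1 by 3.47 (SE 0.50, adjusted p-value 7.82e-06). For miR-51-3p the log2 difference was 3.38 (SE 0.53, adjusted p-value 1.53e-05). Its difference from gld-1 alone was 5.47 (adjusted p-value 4.28e-06), and from lin-41 alone 1.28 (adjusted p-value 0.200). miR-40-3p (3.19), miR-253-3p (2.47) and miR-56-3p (2.24) complete the list. Without alg-1 replicate 2 the last 2 were not past the threshold (2.15 and 1.92, adjusted p-value 0.0841 for each). Against lin-41 alone their adjusted p-values were 0.0671 and 0.0674, and against gld-1 alone 0.00419 and 0.00132.

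**Figure D4:**
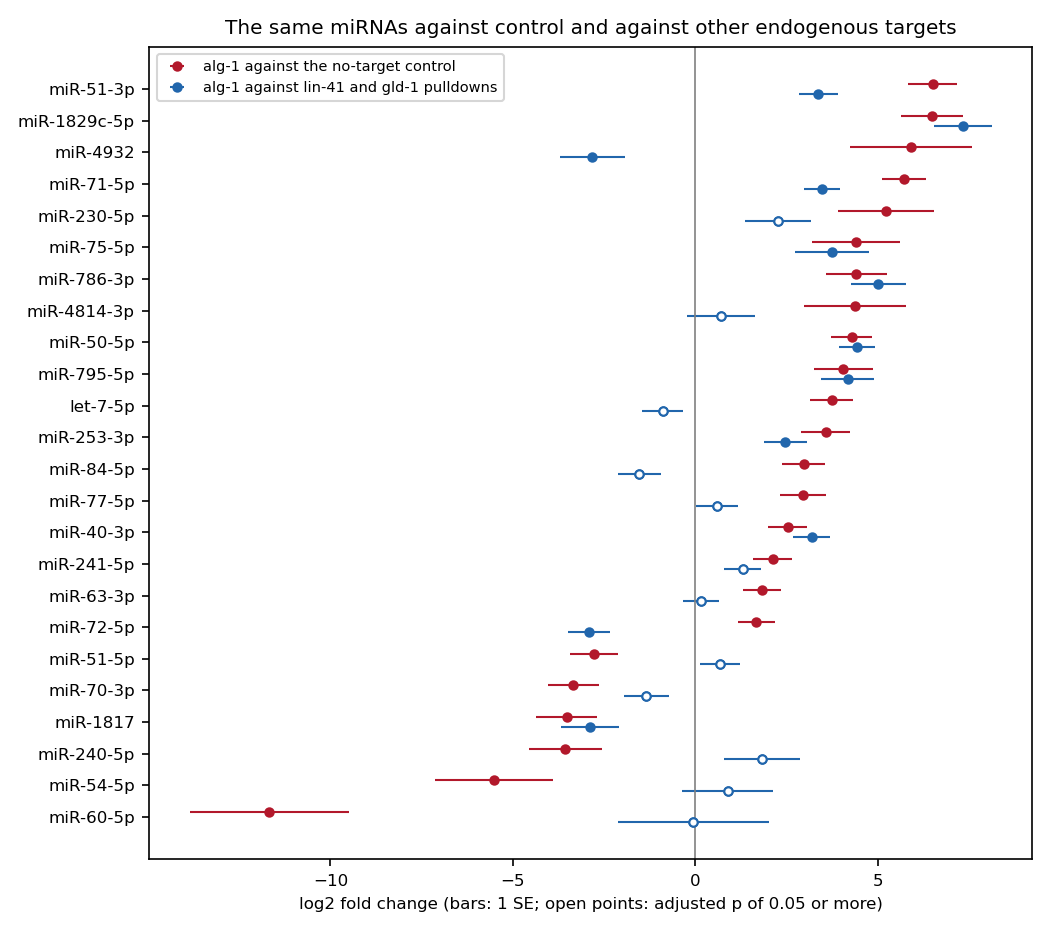
log2 fold change of the 24 called miRNAs with alg-1 against the control (red) and against the lin-41 and gld-1 pulldowns (blue). Bars are 1 SE and open points have an adjusted p-value of 0.05 or more; miR-1829c-5p, miR-786-3p and miR-50-5p have similar values in both, let-7-5p and miR-84-5p fall to the left of 0 in blue, and miR-60-5p moves from -11.69 to -0.05. The red value of miR-4932 is a fitted one, as its control reads are 0, and is no measure of its fold.

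let-7-5p and miR-84-5p were not called in this comparison (log2 fold changes -0.90 and -1.53, adjusted p-values 0.312 and 0.0785), and each is abundant with 1 of the other transcripts. With the name prefix as a factor both were lower (-1.39 and -1.48, adjusted p-values 0.0133 and 0.00562), and miR-84-5p was also lower with upper-quartile factors (-1.94, adjusted p-value 0.0211) and without gld-1 replicate 1 (-1.77, adjusted p-value 0.0413). let-7-5p was lower with alg-1 than with lin-41 (log2 fold change -3.98, adjusted p-value 1.25e-04) and higher than with gld-1 by 2.19 (adjusted p-value 0.0160). miR-84-5p was higher than with lin-41 by 2.03 (adjusted p-value 0.0344) and lower than with gld-1 (-5.09, adjusted p-value 1.03e-05). miR-72-5p, with 118870 and 38277 reads for lin-41, was lower with alg-1 in this comparison (-2.91, SE 0.58, adjusted p-value 3.45e-04), although it was higher than the control.

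Other miRNAs lower with alg-1 were miR-246-3p, with 25 and 16 reads against 1550, 647, 253 and 248 (-4.70, SE 0.72, adjusted p-value 1.48e-05), and miR-66-5p, with 1303 and 730 reads against 1902, 716, 28620 and 19046 (-2.51, adjusted p-value 0.00179). miR-66-5p differed from gld-1 (-4.41, adjusted p-value 1.54e-05) but was not past the threshold against lin-41 (-0.60, adjusted p-value 0.615), and its call was lost without either alg-1 library (adjusted p-values 0.0535 and 0.0849). miR-65-5p (-3.02) and miR-70-5p (-6.82) were lower on average, but their levels overlapped between the groups, and both were high with gld-1 and not with lin-41. The call for miR-65-5p was lost without alg-1 replicate 2 (-2.83, adjusted p-value 0.0697). miR-248, miR-49-5p and miR-4932 were lower on few reads. With at most 8 reads in any other library, miR-49-5p reached the filter on reads only through the lin-41 pulldowns (22 and 15) and gfp::lin-41 (29). Its test is thus no support for the difference. miR-49-5p had 0 reads in both alg-1 libraries and 1 to 22 in the other 4 libraries, and the calls for miR-248 and miR-49-5p were lost without either alg-1 library (adjusted p-values 0.0547 and 0.143, and 0.244 and 0.101) and, for miR-49-5p, without gld-1 replicate 2 (0.164). That for miR-4932 was lost without either alg-1 library, lin-41 replicate 1 or either gld-1 library, with adjusted p-values from 0.0503 to 0.272.

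The miRNAs were also ranked by regression, modelled on the normalisation described for the study: a line was fitted through log2 reads of an alg-1 library and of the prefix-matched control, and the residual was taken as enrichment, with no test. Over 123 miRNAs in replicate 1, the leading residuals were those of miR-1829c-5p (6.28), miR-71-5p (5.87), miR-51-3p (5.85) and miR-795-5p (5.77). Over 96 miRNAs in replicate 2, the same 4 led as miR-71-5p (6.13), miR-1829c-5p (5.96), miR-51-3p (5.81) and miR-795-5p (4.39). let-7-5p ranked 9 and 6. The lowest residual in replicate 1 was that of miR-70-3p (-3.85), and in replicate 2 that of miR-60-5p (-8.71), which has no read in alg-1 replicate 1 and is not ranked there. When the 3 controls were averaged for this regression, miR-51-3p, miR-1829c-5p and miR-71-5p again took the first 3 places in both libraries, but miR-795-5p, with 3 reads in each prefix-matched control, ranked 8 and 11, and miR-786-3p and let-7-5p ranked 4 in replicates 1 and 2.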

How the data were processed

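Small RNA from TRIzol-extracted pulldown elutions was sequenced after library preparation with a SMARTer smRNA-Seq kit. The authors trimmed adaptors and poly(A) tails (cutadapt 1.14), removed Escherichia coli reads (Bowtie2 2.3.3.1) and counted known miRNAs with miRDeep2 and miRBase. The deposited values are raw read counts per mature miRNA and precursor, 452 lines a library. For the 15 miRNAs with several precursors the largest line was used. Reads of near-identical miRNAs may be shared between names.

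Groups came from sample titles. edgeR 4.0.16 (R 4.3.3) was used to fit 1 quasi-likelihood model, with group as its only term, to all 16 libraries, with TMM factors and robust estimation, and Benjamini-Hochberg adjustment over 112 miRNAs. The common biological coefficient of variation was 0.533, and 35 miRNAs had an unadjusted p-value under 0.05 against the control. The SE was obtained from the log2 fold change and the F statistic. The fit was tested on simulated data. Exact permutation of 2 against 3 libraries cannot give p below 0.10 and was not used. All called miRNAs of the control comparison are named, as are several partner arms, miR-71, let-7, miR-84, miR-48 and miR-241. Members and family lists were chosen with earlier results of these data known. Of 90 tested hairpins, 89 were found by name in the Ensembl annotation of WBcel235.

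Alternatives were other scaling (RLE, upper quartile, TMMwsp, library totals), other filters, DESeq2 1.42.0, no robust estimation, summed precursors, only the compared groups, a replicate block, the prefix as a factor, each replicate left out, and, added after seeing the data, only PD1 and PD2 libraries with prefix as a factor. miRNA sequences and seed matches in the alg-1 transcript were not analysed here.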

Additional observations from a re-analysis of the deposited data

How the results depend on the processing

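Of the 24 miRNAs called against the control, 11 kept their call under all 18 alternatives (let-7-5p, miR-1817, miR-1829c-5p, miR-50-5p, miR-51-3p, miR-51-5p, miR-60-5p, miR-70-3p, miR-71-5p, miR-786-3p and miR-795-5p) and 13 lost it under at least 1. miR-72-5p lost it under 7, and with library totals its value was -0.09. Library totals gave 7 miRNAs higher and 30 lower than the control, and 32 higher and 3 lower than lin-41 and gld-1. With the name prefix as a factor, 10 were lower than the control and 14 lower than lin-41 and gld-1. With only PD1 and PD2 libraries and the prefix as a factor, 14 were lower than the control. With each replicate left out in turn, 10 to 22 were higher and 4 to 12 lower than the control, and 7 to 10 higher and 4 to 10 lower than lin-41 and gld-1. The cause of these changes was not tested. The replicate block gave 18 higher and 7 lower against the control, 23 of its 25 calls being shared, and the same 19 calls against lin-41 and gld-1. Same-numbered alg-1 and control libraries deviated from their group means with correlations of -0.18 and -0.49. Those with the same prefix gave 0.49 and 0.34. With 2 alg-1 libraries the deviations mirror each other, so -0.49 and 0.49 are 1 value with its sign turned. These correlations therefore cannot decide whether numbers or prefixes pair the libraries. Depth limits the rare miRNAs most, since control replicate 3 held 12474 reads.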

Other observations

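Among the 322 miRNAs below the filter, 5 had at least 3 reads in both alg-1 libraries and at most 1 read summed over all controls. They were miR-79-3p (9 and 6 reads with alg-1), miR-35-5p (6 and 4), miR-244-5p (6 and 4), miR-1821-3p (6 and 3) and miR-4937 (4 and 4). miR-35-5p is the arm of mir-35 that is usually discarded, and it had at most 1 read in the lin-41 and gld-1 pulldowns. These were picked from the data by their reads and carry no test.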
